A study of Mus musculus with 8 samples.

Results

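The genes described here are 10 genes of the actin cytoskeleton, its adhesion sites and the transcription factor SRF, namely Actb, Actg1, Srf, Actn1, Actn4, Flna, Myh9, Vcl, Tln1 and Zyx. They were chosen by gene symbol, and all 10 were found among the 50578 genes of the count table. All 10 had enough counts to be tested, as did 15154 genes in all. The choice was made with earlier results of these data known. Of the values behind it only the level of Actn4 with LY-364947 and with carbidopa is recorded. The differences of Actn4 that use these libraries are therefore given below as descriptions without a test. For the other genes such values are not recorded, so their p-values may not be free of the choice.

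The 8 RNA-seq libraries came from mouse embryonic fibroblasts (MEFs), primary cells of connective tissue, in 4 groups of 2. One group was untreated, and each of the others received a single compound at 10 µM. CHIR-99021 is an inhibitor of the kinase GSK3 and thereby activates Wnt signalling, LY-364947 blocks the receptor of TGF-beta, and carbidopa blocks the decarboxylase of aromatic amino acids. All groups were wild-type cells from C57BL/6J embryos, kept in the same medium with serum. The MEFs were labelled as controls and the treated cells as hepatic-like, the labels spell LY-364947 as LY-364747, and the sources used here do not give the duration of treatment for RNA-seq or say whether replicates came from separate embryos, so that the p-values measure the spread between these libraries, which may be technical.

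Actin monomers (G-actin) assemble into filaments (F-actin). Myosin pulls on the filaments, cross-linking proteins bundle them into stress fibres, and talin and vinculin couple them to integrins at focal adhesions. When filaments form, the pool of free monomers shrinks and releases the cofactors MRTF-A and MRTF-B, which enter the nucleus and activate genes together with SRF. Many genes of actin and of its partners are known targets of SRF, and fibroblasts are rich in them. SRF binds a DNA motif called the CArG box, a run of A and T between a pair of C and a pair of G.

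Because these genes are linked to SRF, their promoters were searched for the CArG box on both strands. The table of RefSeq promoters (GRCm38.p6), which spans 250 bases before to 50 bases after each start, held 9 of the 10 genes, all but Actb. The motif was present in 3 of these 9, those of Srf, Actg1 and Vcl, and in 535 of all 32851 promoters (1.63%). The Srf promoter held 2 copies, at 82 to 73 and at 62 to 53 bases before the start. The copy of Actg1 lay 90 to 81 bases and that of Vcl 227 to 218 bases before the start. The stretches around them are shown 5′ to 3′ on the strand of the gene, with the CArG boxes in capitals, since these are the letters by which the genes are tied to SRF. They lie at chr17:46556200-46556259 (minus strand) for Srf, at chr11:120348561-120348600 (minus strand) for Actg1 and at chr14:20929156-20929195 (plus strand) for Vcl.
Srf: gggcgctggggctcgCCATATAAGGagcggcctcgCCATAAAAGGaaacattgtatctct
Actg1: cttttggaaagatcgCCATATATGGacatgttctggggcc
Vcl: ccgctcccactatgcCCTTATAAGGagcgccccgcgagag
A match in these letters is a description and not a measured binding site, and the promoters of Actn1, Actn4, Flna, Myh9, Tln1 and Zyx held no match in this window.

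Total counts ranged from 15039566 to 20504338 per library, and the 10 genes together took 0.690% to 1.22% of them. Levels are given as CPM, the usual scaling of a gene’s counts to the total of its library, after TMM normalisation, which adjusts for differences in composition. Replicates differed more with carbidopa than in the other groups, with 36.9 times the chi-square value of sampling noise against 4.44 to 9.59 times. For the 10 genes, values without carbidopa replicate 1 are given where a call changes. For single genes of the companion lists below they are not given. Fibroblast markers were expressed in all libraries. Hepatocyte markers summed to 0.297 and 0.323 CPM in MEFs and to between 0.518 and 1.18 CPM in treated libraries. Alb had 2 and 0 counts in MEFs and 5 to 10 in treated libraries, and Hnf4a had 1 and 2 and then 6 to 10. Serpina1a and Tat were at 0 in all, and the other hepatocyte markers had at most 3 counts. None of these markers had enough counts to be tested. Groups were compared by edgeR's quasi-likelihood test, and genes with an adjusted p under 0.05 over all genes tested are called higher or lower.

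**Figure D1:**
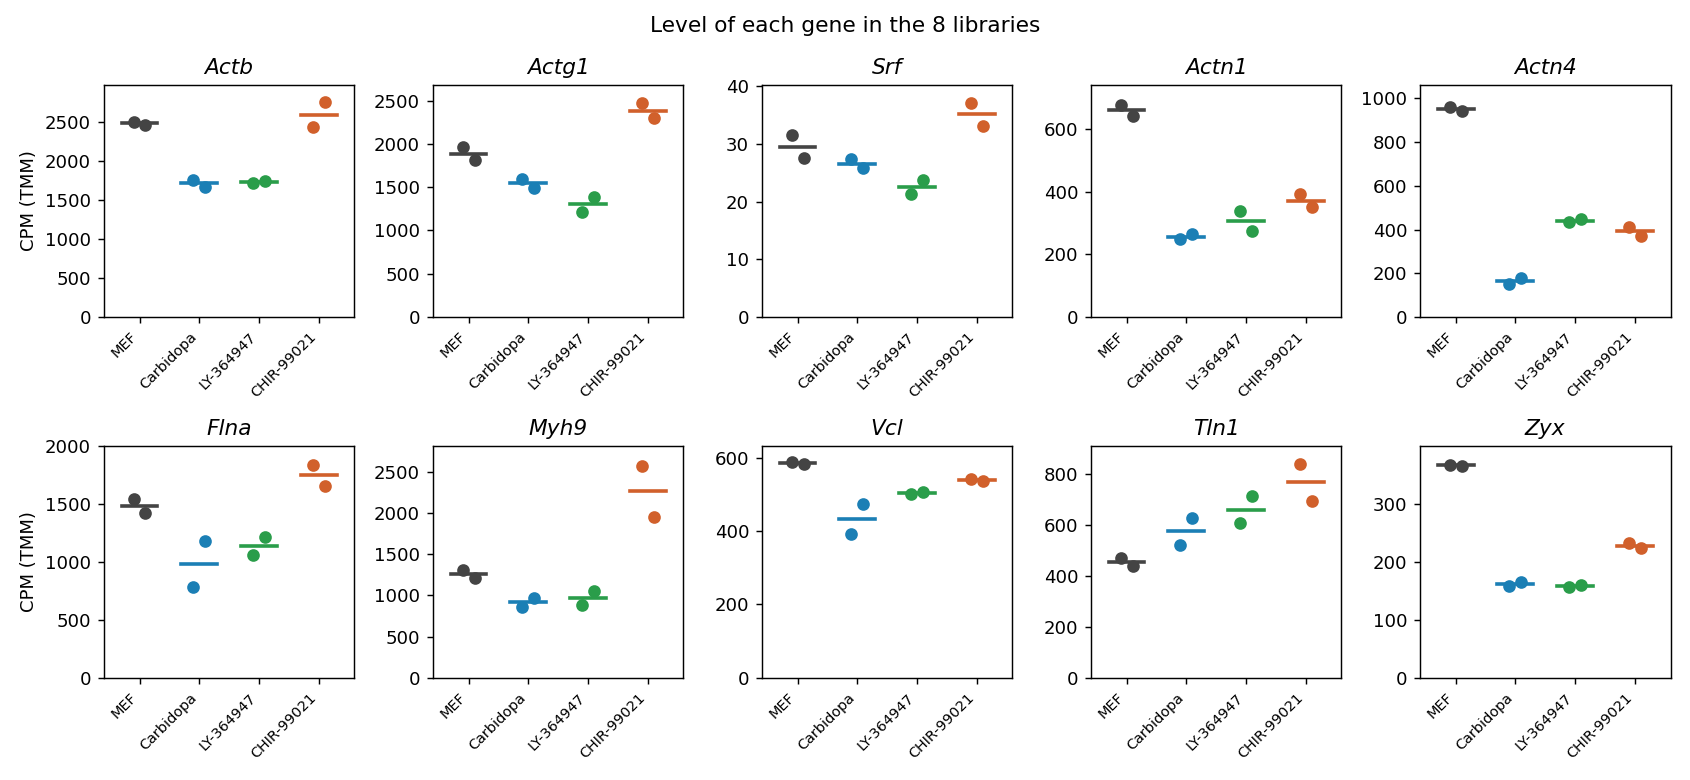
Level of each of the 10 genes in CPM after TMM scaling (vertical axes start at 0 and differ between genes). Each point is 1 library and each bar the mean of the 2 libraries of a group. Actn4, Actn1 and Zyx lie below MEFs with every compound, whereas Myh9 lies near 2260 CPM with CHIR-99021 and at or below 1307 CPM elsewhere.

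Compared with MEFs, the treated cells differed in many of the 10 genes, and the direction differed between the compounds. With carbidopa 7 of 10 were lower and 0 higher by edgeR (1, Tln1, at an unadjusted p under 0.05 and 0 by DESeq2), with LY-364947 6 were lower and 1 higher, and with CHIR-99021 3 were lower and 3 higher. Without Actn4, the counts over the other 9 genes were 6 lower with carbidopa, 5 lower and 1 higher with LY-364947, and 2 lower and 3 higher with CHIR-99021. The share of all genes tested that were lower was 20.1% for CHIR-99021, 17.2% for LY-364947 and 19.7% for carbidopa, and the shares that were higher were 18.7%, 13.7% and 18%. For carbidopa, LY-364947 and CHIR-99021, the 10 genes had median log2 fold changes of -0.50, -0.45 and 0.15, beside 0.04, 0.03 and 0.04 over all genes. The 3 comparisons share the MEF libraries and are therefore not independent of each other. Scaling by library totals alone raised these medians of all genes to 0.29, 0.25 and 0.26 and gave 6 higher and 3 lower for CHIR-99021, 1 and 5 for LY-364947 and 1 and 4 for carbidopa. Without carbidopa replicate 1 the median with carbidopa was -0.36. Relative to the median of all genes, that of the 10 genes was -0.54, -0.48 and 0.11 under both scalings. A change of scaling moves all genes by nearly the same amount, so this sameness is no check of the scaling.

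**Figure D2:**
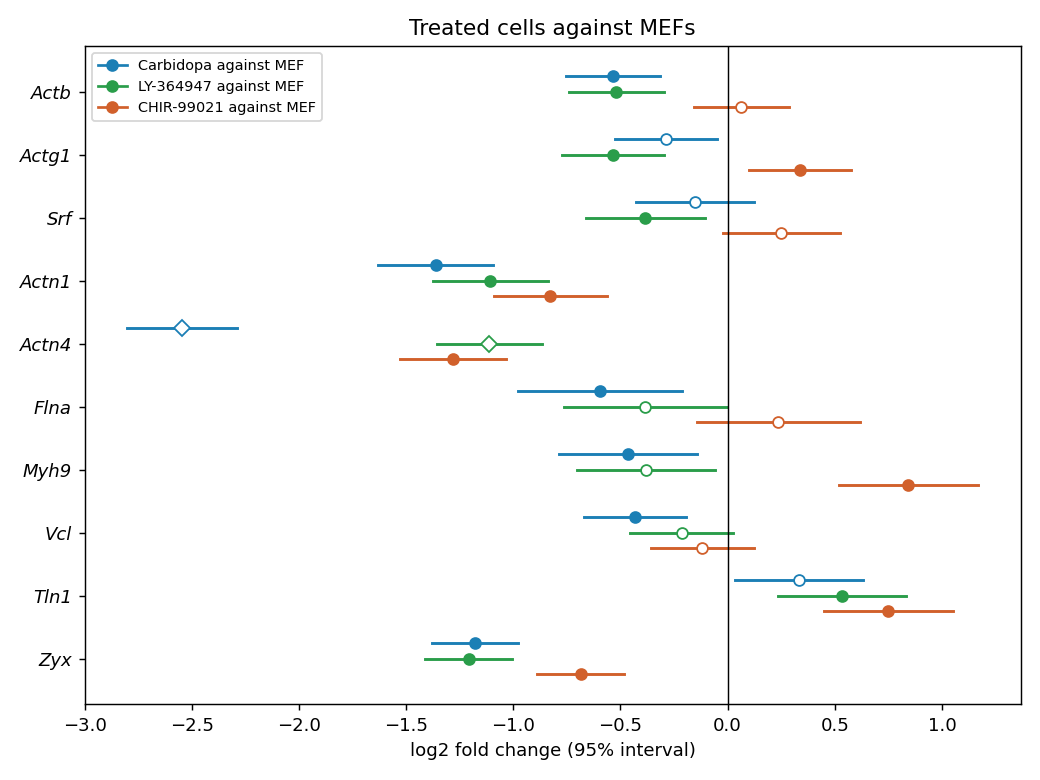
Log2 fold change of each gene in treated cells against MEFs (horizontal axis), with bars for the 95% interval of the edgeR fit. Filled circles have an adjusted p under 0.05, open circles do not, and diamonds mark differences of Actn4 given without a test. Actn1, Actn4 and Zyx lie left of 0 with all compounds, and Myh9 lies at 0.84 with CHIR-99021 and left of 0 with the others.

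The cytoplasmic actins Actb (ENSMUSG00000029580, chr5:142903115-142906754) and Actg1 (ENSMUSG00000062825, chr11:120345690-120348542) (mm10 positions, GENCODE M21) encode the monomers from which the filaments of nonmuscle cells are built. Actb had 2496 and 2465 CPM in the MEF libraries, 2438 and 2750 under CHIR-99021, 1719 and 1740 under LY-364947 and 1759 and 1665 under carbidopa. The carbidopa and LY-364947 libraries thus lay below all MEF and CHIR-99021 libraries, whereas CHIR-99021 and MEFs overlapped. Actb was 1.45-fold lower with carbidopa (log2 fold change -0.53, SE 0.10, edgeR adjusted p = 0.00206) and 1.43-fold lower with LY-364947 (-0.52, SE 0.10, edgeR adjusted p = 0.00258). With CHIR-99021 the difference from MEFs was 0.06 on the log2 scale, with a 95% interval from -0.16 to 0.29. Actb is widely used as a reference gene, and it took 0.174% to 0.282% of all counts.

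Actg1 had 1963 and 1810 CPM in the MEF libraries, 2467 and 2303 under CHIR-99021, 1217 and 1389 under LY-364947 and 1598 and 1490 under carbidopa. The 4 groups did not overlap, in the order CHIR-99021, MEF, carbidopa and LY-364947. Actg1 fell by 30.9% with LY-364947 (log2 fold change -0.53, SE 0.11, edgeR adjusted p = 0.00347), a call lost without MEF replicate 1 or LY-364947 replicate 1 (adjusted p = 0.0513 and 0.0515), and was 1.26-fold higher with CHIR-99021 (0.34, SE 0.11, edgeR adjusted p = 0.0296). With carbidopa the log2 fold change was -0.29, which missed the threshold (edgeR adjusted p = 0.0566) and passed it without carbidopa replicate 1 (-0.34, edgeR adjusted p = 0.0197). The rise with CHIR-99021 was lost when any MEF or CHIR-99021 library was left out (adjusted p from 0.0591 to 0.237). The values of Actg1 are uncertain, since 33.5% of the 75-base stretches of its transcripts also occur in other genes. Most of these were shared with Gm12715, which had 137 to 279 counts per library. The paper describes longer, paired reads, for which the shared part may be smaller. How far sharing moved the counts of Actg1 was not measured.

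Srf (ENSMUSG00000015605, chr17:46548329-46556175) encodes the transcription factor itself. It had 31.5 and 27.6 CPM in the MEF libraries, 37.2 and 33.1 under CHIR-99021, 21.4 and 23.9 under LY-364947 and 27.4 and 25.8 under carbidopa. Srf followed the same order of groups as Actg1, and the groups did not overlap, although MEF replicate 2 and carbidopa replicate 1 were close. Srf fell by 23.4% with LY-364947 (log2 fold change -0.38, SE 0.13, edgeR adjusted p = 0.0398), a call that was lost in 11 of 17 alternatives, among them the replicate block (adjusted p = 0.0531). With carbidopa (-0.15, edgeR adjusted p = 0.356) and CHIR-99021 (0.25, edgeR adjusted p = 0.133) the differences from MEFs did not pass the test. Across the 8 libraries the log2 level of Srf correlated with that of Actg1 at r = 0.984, a description over libraries that fall into 4 groups.

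Actn1 (ENSMUSG00000015143, chr12:80167547-80260371) and Actn4 (ENSMUSG00000054808, chr7:28893248-28962340) encode the nonmuscle alpha-actinins, which cross-link filaments in stress fibres and anchor them at adhesions. Actn1 had 678 and 642 CPM in the MEF libraries, 392 and 352 under CHIR-99021, 338 and 275 under LY-364947 and 248 and 265 under carbidopa. It was lower in every treated library than in both MEF libraries, and the 3 treated groups did not overlap. Actn1 was 2.57-fold lower with carbidopa (log2 fold change -1.36, SE 0.12, edgeR adjusted p = 1.17e-05), 2.15-fold lower with LY-364947 (-1.11, SE 0.12, edgeR adjusted p = 5.32e-05) and 1.77-fold lower with CHIR-99021 (-0.83, SE 0.12, edgeR adjusted p = 3.64e-04).

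Actn4 had 961 and 943 CPM in the MEF libraries, 411 and 371 under CHIR-99021, 433 and 448 under LY-364947 and 149 and 177 under carbidopa. The carbidopa libraries lay lowest, far from the other treated libraries, and LY-364947 lay slightly above CHIR-99021. Actn4 was 2.43-fold lower with CHIR-99021 than in MEFs (log2 fold change -1.28, SE 0.11, edgeR adjusted p = 9.84e-06). As a description, its level was 5.83-fold lower with carbidopa (-2.54, SE 0.12) and 2.16-fold lower with LY-364947 (-1.11, SE 0.11) than in MEFs, and 2.70-fold higher with LY-364947 than with carbidopa (1.43 on the log2 scale).

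Flna (ENSMUSG00000031328, chrX:74223461-74249820) encodes filamin A, which cross-links filaments into networks, and Myh9 (ENSMUSG00000022443, chr15:77760587-77842175) encodes the heavy chain of nonmuscle myosin IIA, the motor of stress fibres. Flna had 1539 and 1424 CPM in the MEF libraries, 1835 and 1657 under CHIR-99021, 1055 and 1217 under LY-364947 and 779 and 1181 under carbidopa. Its carbidopa libraries differed most from each other, and LY-364947 lay within or near their range. Flna fell by 33.9% with carbidopa (log2 fold change -0.60, SE 0.17, edgeR adjusted p = 0.0208), and the call was lost without either MEF library (adjusted p = 0.118 and 0.0733). Without carbidopa replicate 1 the fold change was -0.33. With LY-364947 (-0.38, edgeR adjusted p = 0.121) and with CHIR-99021 (0.24, edgeR adjusted p = 0.302) the differences did not pass the test, but both passed with the same fold changes when carbidopa replicate 1 (adjusted p = 0.00341 and 0.0342) or replicate 2 (0.00351 and 0.0346) was left out.

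Myh9 had 1307 and 1214 CPM in the MEF libraries, 2570 and 1951 under CHIR-99021, 881 and 1054 under LY-364947 and 857 and 970 under carbidopa. The CHIR-99021 libraries lay above all others, and carbidopa and LY-364947 overlapped below MEFs. Myh9 was 1.79-fold higher with CHIR-99021 than in MEFs (log2 fold change 0.84, SE 0.15, edgeR adjusted p = 0.00125), the largest rise among the 10 genes. It fell by 27.5% with carbidopa (-0.46, SE 0.15, edgeR adjusted p = 0.0295), a call lost without MEF replicate 1, MEF replicate 2 or carbidopa replicate 1 (adjusted p = 0.162, 0.0910 and 0.0740). With LY-364947 the value was -0.38 (edgeR adjusted p = 0.0732), which passed in 8 of 17 alternatives, among them DESeq2 and the fit without carbidopa replicate 1 (adjusted p = 0.0252 in both).

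Vcl (ENSMUSG00000021823, chr14:20929398-21033676) encodes vinculin and Tln1 (ENSMUSG00000028465, chr4:43531519-43562691) encodes talin 1, and the proteins bind each other where filaments meet integrins. Vcl had 587 and 582 CPM in the MEF libraries, 542 and 536 under CHIR-99021, 500 and 508 under LY-364947 and 392 and 475 under carbidopa. The groups did not overlap, although the span from lowest to highest was small. Vcl fell by 25.9% with carbidopa (log2 fold change -0.43, SE 0.11, edgeR adjusted p = 0.0108), a call lost without either MEF library (adjusted p = 0.0743 and 0.0735), and its values with LY-364947 (-0.21, edgeR adjusted p = 0.165) and CHIR-99021 (-0.12, edgeR adjusted p = 0.415) did not pass the test. That with LY-364947 passed without carbidopa replicate 1 or 2 (adjusted p = 0.0131 and 0.0132) and with these groups alone (0.0111). The exons of Vcl are overlapped over 25.5% of their length by Ap3m1 on the opposite strand, and whether the counting used strand is not given in the sources used here.

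Tln1 went the other way. It had 472 and 441 CPM in the MEF libraries, 841 and 695 under CHIR-99021, 609 and 713 under LY-364947 and 521 and 629 under carbidopa. Every treated library lay above both MEF libraries, and neighbouring treated groups overlapped. Tln1 was 1.68-fold higher with CHIR-99021 (log2 fold change 0.75, SE 0.14, edgeR adjusted p = 0.00162) and 1.45-fold higher with LY-364947 (0.53, SE 0.14, edgeR adjusted p = 0.0125). The call with LY-364947 was lost without either MEF library or without LY-364947 replicate 2 (adjusted p from 0.0603 to 0.121). With carbidopa the value was 0.33 (edgeR adjusted p = 0.0769), and it passed the test without carbidopa replicate 1 (0.46, edgeR adjusted p = 0.0119).

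Zyx (ENSMUSG00000029860, chr6:42349630-42360213) encodes zyxin, a LIM protein of focal adhesions that moves to strained stress fibres. It had 367 and 366 CPM in the MEF libraries, 232 and 223 under CHIR-99021, 157 and 160 under LY-364947 and 158 and 165 under carbidopa. Replicates lay close together, and only carbidopa and LY-364947 overlapped. Zyx was 2.26-fold lower with carbidopa (log2 fold change -1.18, SE 0.09, edgeR adjusted p = 4.50e-06), 2.31-fold lower with LY-364947 (-1.21, SE 0.09, edgeR adjusted p = 3.93e-06) and 1.61-fold lower with CHIR-99021 (-0.69, SE 0.09, edgeR adjusted p = 1.99e-04).

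Between the compounds, CHIR-99021 stood above the others. Against LY-364947 6 of 10 genes were higher with CHIR-99021 and 0 lower, where 6.45% of all genes tested were higher and 7.69% lower. Against carbidopa 7 of 10 were higher and 0 lower, where 6.62% of all genes were higher and 8.08% lower, and without Actn4 both counts were 6 of 9. DESeq2 also found 0 lower in both comparisons, and 0 were lower at an unadjusted p under 0.05. All 10 genes were higher in both CHIR-99021 libraries than in both carbidopa libraries, as were 25.9% of all genes tested. The median log2 difference of the 10 genes was 0.55 against LY-364947 and 0.57 against carbidopa, beside 0.01 and -0.00071 over all genes.

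Actb, Actg1, Flna, Myh9 and Zyx were higher with CHIR-99021 in both comparisons. Myh9 differed most, 2.34-fold from LY-364947 (log2 difference 1.22, SE 0.15, edgeR adjusted p = 5.23e-04) and 2.48-fold from carbidopa (1.31, SE 0.15, edgeR adjusted p = 3.46e-04). Actg1 was 1.83-fold and 1.54-fold higher (edgeR adjusted p = 6.29e-04 and 0.00386). Actb was 0.58 and 0.60 higher on the log2 scale (edgeR adjusted p = 0.00382 and 0.00332), and Zyx was 1.44-fold and 1.41-fold higher (edgeR adjusted p = 0.00414 and 0.00555). Flna was 1.54-fold and 1.78-fold higher (edgeR adjusted p = 0.0373 and 0.0101), but its call against LY-364947 was lost in 6 of 8 fits that left out a library. This set thus joined the actin monomers, their myosin motor and 2 proteins of the stress fibre.

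Srf was 1.55-fold higher with CHIR-99021 than with LY-364947 (log2 difference 0.64, SE 0.12, edgeR adjusted p = 0.00765), and against carbidopa its difference of 0.40 missed the threshold (edgeR adjusted p = 0.0515) and passed it without carbidopa replicate 1 (0.45, adjusted p = 0.0334). Both alpha-actinins lay higher with CHIR-99021 than with carbidopa, and whether their differences were unlike each other was not tested. As a description, Actn4 differed from its level under carbidopa by 1.26 on the log2 scale, higher with CHIR-99021 (SE 0.11), and from its level under LY-364947 by -0.17, with a 95% interval from -0.41 to 0.07. Actn1 was 1.45-fold higher than with carbidopa (0.53, SE 0.12, edgeR adjusted p = 0.0145), and 0.28 against LY-364947 did not pass the test (edgeR adjusted p = 0.150) and did so without carbidopa replicate 1 (adjusted p = 0.0494). Vcl and Tln1 passed in neither comparison in the main fit, with differences of 0.10 and 0.22 from LY-364947 and of 0.31 and 0.42 from carbidopa. Against carbidopa, Tln1 passed by DESeq2 (0.41, adjusted p = 0.0296) and without a filter on low counts (0.42, edgeR adjusted p = 0.00462). The differences of Vcl and Tln1 from carbidopa were 0.46 and 0.56 without carbidopa replicate 2, and 0.18 and 0.29 without replicate 1. Without CHIR-99021 replicate 1 the number of genes higher was 3 against LY-364947 and 4 against carbidopa, and without LY-364947 replicate 1 it was 2 against LY-364947. Actg1 and Myh9 were higher in each of these.

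**Figure D3:**
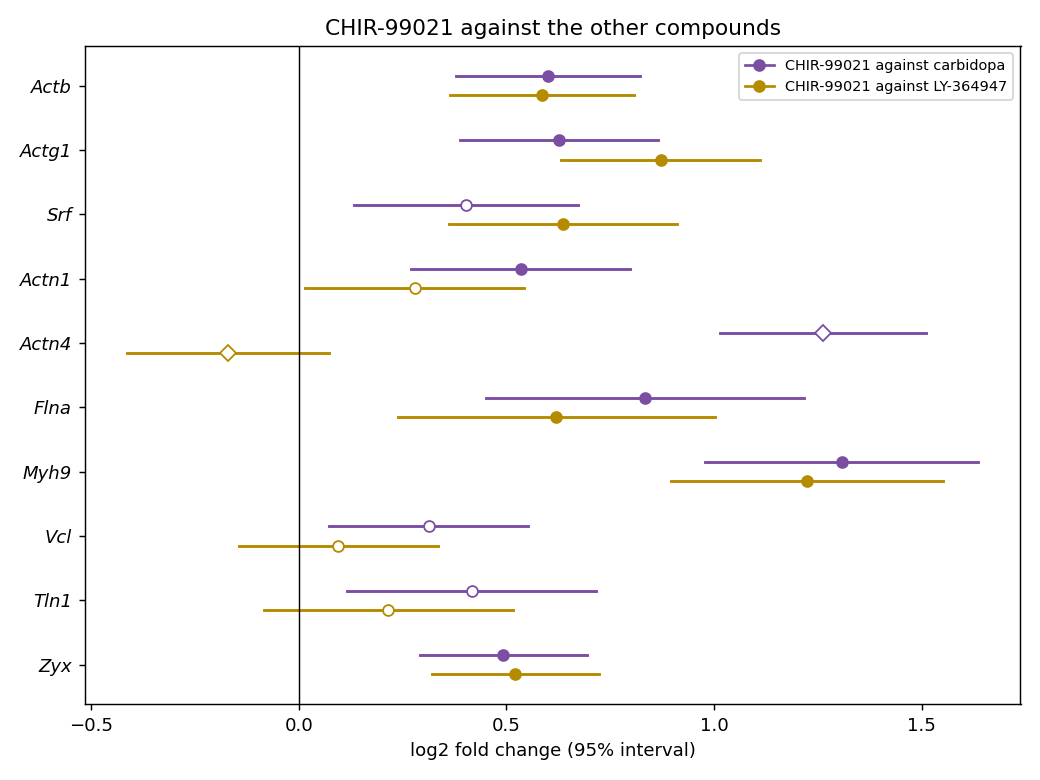
Log2 difference of each gene between CHIR-99021 and the other compounds (horizontal axis), with bars for the 95% interval of the edgeR fit. Filled circles have an adjusted p under 0.05, open circles do not, and diamonds mark differences of Actn4 given without a test. All points but that of Actn4 against LY-364947 lie right of 0, and Myh9 lies farthest at 1.22 and 1.31, with Actn4 at 1.26 against carbidopa.

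Between LY-364947 and carbidopa, none of the 9 genes other than Actn4 passed the test by edgeR or by DESeq2, and 1 of them, Actg1, had an unadjusted p under 0.05 (-0.25, lower with LY-364947). Over all genes tested 0.0132% were higher with LY-364947 and 0% lower, and 726 were higher and 641 lower at an unadjusted p under 0.05. The log2 differences of the 9 genes ranged from -0.25 for Actg1 to 0.26 for Actn1, and their 95% intervals reached from -0.51 for Srf to 0.59 for Flna. The count moved with the carbidopa libraries. Without carbidopa replicate 2, Flna and Vcl were called higher and Actg1 lower with LY-364947, and without carbidopa replicate 1 none of the 9 was called.

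The ratio of related genes within a library does not depend on the scaling between libraries. Per kilobase of exon, the ratio of Actn4 to Actn1 was 1.28 and 1.33 in MEFs, 0.948 and 0.953 under CHIR-99021, 1.16 and 1.47 under LY-364947 and 0.543 and 0.603 under carbidopa. Actn1 thus exceeded Actn4 in both carbidopa libraries and slightly in both CHIR-99021 libraries, and LY-364947 overlapped MEFs. The ratio of Tln1 to Vcl per kilobase was 0.672 and 0.633 in MEFs and lay between 1.02 and 1.30 in all 6 treated libraries, so that MEFs stood apart and the treated groups overlapped. The ratio of Actb to Actg1 lay between 0.981 and 1.40 in all libraries, with CHIR-99021 (0.981 and 1.18) overlapping carbidopa (1.09 and 1.11), and LY-364947 (1.40 and 1.24) overlapping MEFs (1.26 and 1.35). With 2 libraries per group an exact permutation test of a ratio cannot go below p = 0.333, and none was made.

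**Figure D4:**
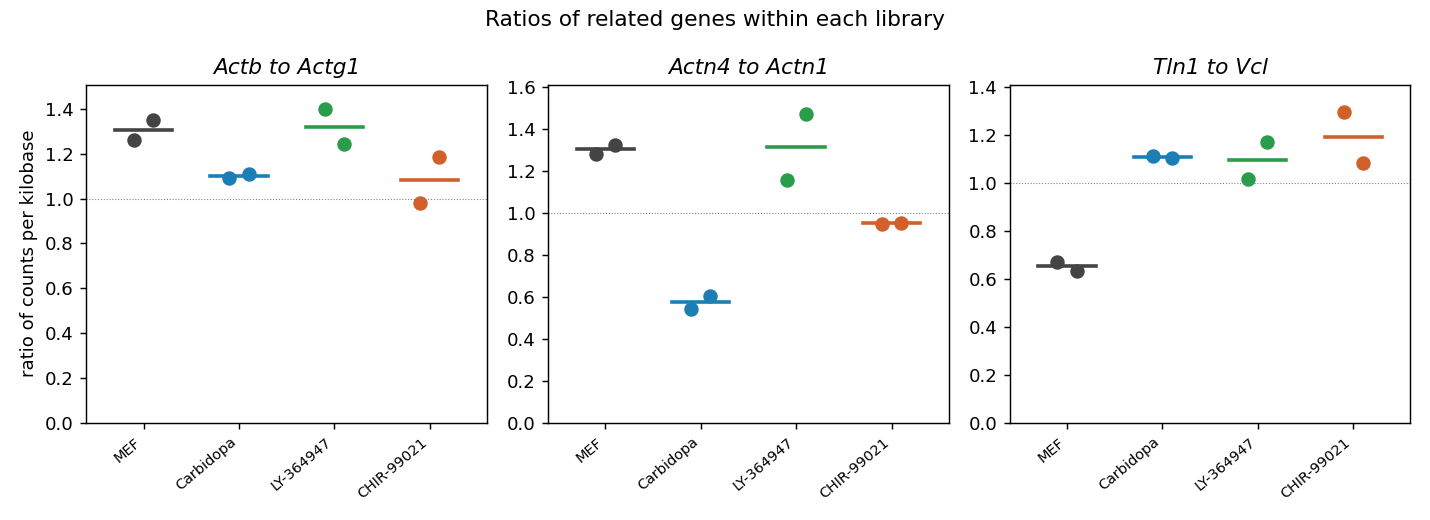
Ratio of counts per kilobase of exon for Actb to Actg1, Actn4 to Actn1 and Tln1 to Vcl (vertical axes, starting at 0), with 1 point per library, a bar at the mean of each group and a dotted line at 1. The Actn4 to Actn1 ratio is lowest with carbidopa (0.543 and 0.603), and the Tln1 to Vcl ratio is below 0.68 in MEFs and above 1 in every treated library.

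The levels of different genes were compared as TPM, which divides counts by exon length and scales each library to the same sum. In MEFs the order was Actb (2929 ± 125 TPM, SD, n = 2 here and below), Actg1 (2247 ± 205), Flna (499 ± 44.2), Actn4 (491 ± 23.0), Actn1 (377 ± 27.1), Myh9 (309 ± 26.6), Vcl (226 ± 9.10), Zyx (215 ± 7.71), Tln1 (148 ± 12.1) and Srf (32.4 ± 4.12). Flna and Actn4, and Vcl and Zyx, did not differ beyond their spread. Actb, Actg1 and Flna held the first 3 places in every group, and Srf was last with 28.3 to 44.2 TPM. Actn4 dropped from the fourth place to the ninth with carbidopa (92.5 ± 13.8 TPM), next to Zyx (104 ± 6.11 TPM), from which it did not differ beyond the spread. Myh9 reached 637 ± 146 TPM with CHIR-99021, within the spread of Flna (675 ± 72.8 TPM). Tln1 moved from the ninth place in MEFs to the fifth with CHIR-99021 (285 ± 48.5 TPM).

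The genes whose pattern over the 8 libraries was most like the mean of the 10 genes were Synpo (Pearson r = 0.988), Smurf1 (0.987), Wwc2 (0.987), Dnajc5 (0.986) and Adam12 (0.984). Synpo, which encodes the actin-bundling protein synaptopodin, had 217 and 210 CPM in the MEF libraries, 200.5 and 194 under CHIR-99021, 127 and 136 under LY-364947 and 92.9 and 122 under carbidopa. These correlations are descriptions over libraries that fall into 4 groups.

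Companion lists of the same pathway are given as counts of genes that passed the test against MEFs, without a test of the list, with the medians beside the 0.04, 0.03 and 0.04 of all genes and the counts beside the 19.7%, 17.2% and 20.1% of all genes that were lower and the 18%, 13.7% and 18.7% that were higher. Under library totals alone, the medians of all genes were 0.29, 0.25 and 0.26, and counts under this scaling are given too. Among 8 known partners of SRF, 7 were tested, and 4, 2 and 1 were lower (for carbidopa, LY-364947 and CHIR-99021 in this order, here and below), whereas 0 were higher by edgeR, by DESeq2 or at an unadjusted p under 0.05 (medians -0.36, -0.21 and -0.12). Scaled by library totals alone, 1, 2 and 1 were lower and 0, 0 and 1 higher, with medians of -0.12, 0.02 and 0.10. Fhl2, a LIM-domain cofactor that is itself a known SRF target, carried the largest of these falls, from 114 and 109 CPM in MEFs to 26.5 and 25.8 under CHIR-99021, 9.99 and 12.5 under LY-364947 and 13.8 and 10.9 under carbidopa (log2 fold changes -3.18, -3.31 and -2.09). Mkl1, which encodes MRTF-A, fell with carbidopa (-0.36, edgeR adjusted p = 0.0356), where it had 26.5 and 31.9 CPM against 36.7 and 38.1 in MEFs. Its values were -0.21 and 0.09 with the others.

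Mkl2, which encodes MRTF-B, had 102 and 106 CPM in MEFs and 54.7 and 107 in the carbidopa libraries, of which replicate 1 lay lowest of all 8. It passed the test with no compound (-0.36, 0.07 and 0.06). Of the ternary complex factors, Elk3 fell with carbidopa and LY-364947 (-0.47 and -0.58) and had -0.04 with CHIR-99021, Elk4 fell with carbidopa (-0.54), with -0.17 and -0.24 for the others, and Elk1 passed with none (-0.31, -0.26 and -0.12). Scai, a repressor of the MRTF cofactors, also passed with none (-0.35, 0.07 and -0.13). Myocd, the cofactor of heart and smooth muscle, was at most 0.645 CPM and was not tested. Without carbidopa replicate 1, 2 of the 7 were lower with carbidopa, and without replicate 2 all 7 were (median -0.80).

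Muscle actins and smooth muscle targets of SRF, of which 11 of 12 were tested, were lower in most cases. With carbidopa 9 were lower and 0 higher, with LY-364947 11 were lower and 0 higher, and with CHIR-99021 8 were lower and 2 higher, or 1 higher with RLE or upper-quartile factors (medians -1.60, -1.99 and -0.94). The counts of 0 were also 0 by DESeq2 and at an unadjusted p under 0.05. Acta2, the smooth muscle actin of activated fibroblasts, had 2161 and 1970 CPM in MEFs and 90.1 to 134 in the treated libraries (log2 fold changes -4.51, -4.32 and -4.17). Actg2 (-3.90, -3.88 and -2.67) and Myh11, the smooth muscle myosin (-2.64, -2.93 and -1.74), fell with all compounds as well. Between compounds, 8 of the 11 were higher with CHIR-99021 than with LY-364947 and 8 than with carbidopa, and 0 were lower by either tool or at an unadjusted p under 0.05. In these comparisons, 6.45% and 6.62% of all genes tested were higher and 7.69% and 8.08% lower. Of 7 immediate early targets tested of 8, 5, 6 and 4 were lower and 1 was higher, with CHIR-99021 (medians -1.52, -1.15 and -1.67), among them Egr1 (-1.81, -1.59 and -1.67) and Nr4a1 (-2.30, -2.32 and -2.16).

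**Figure D5:**
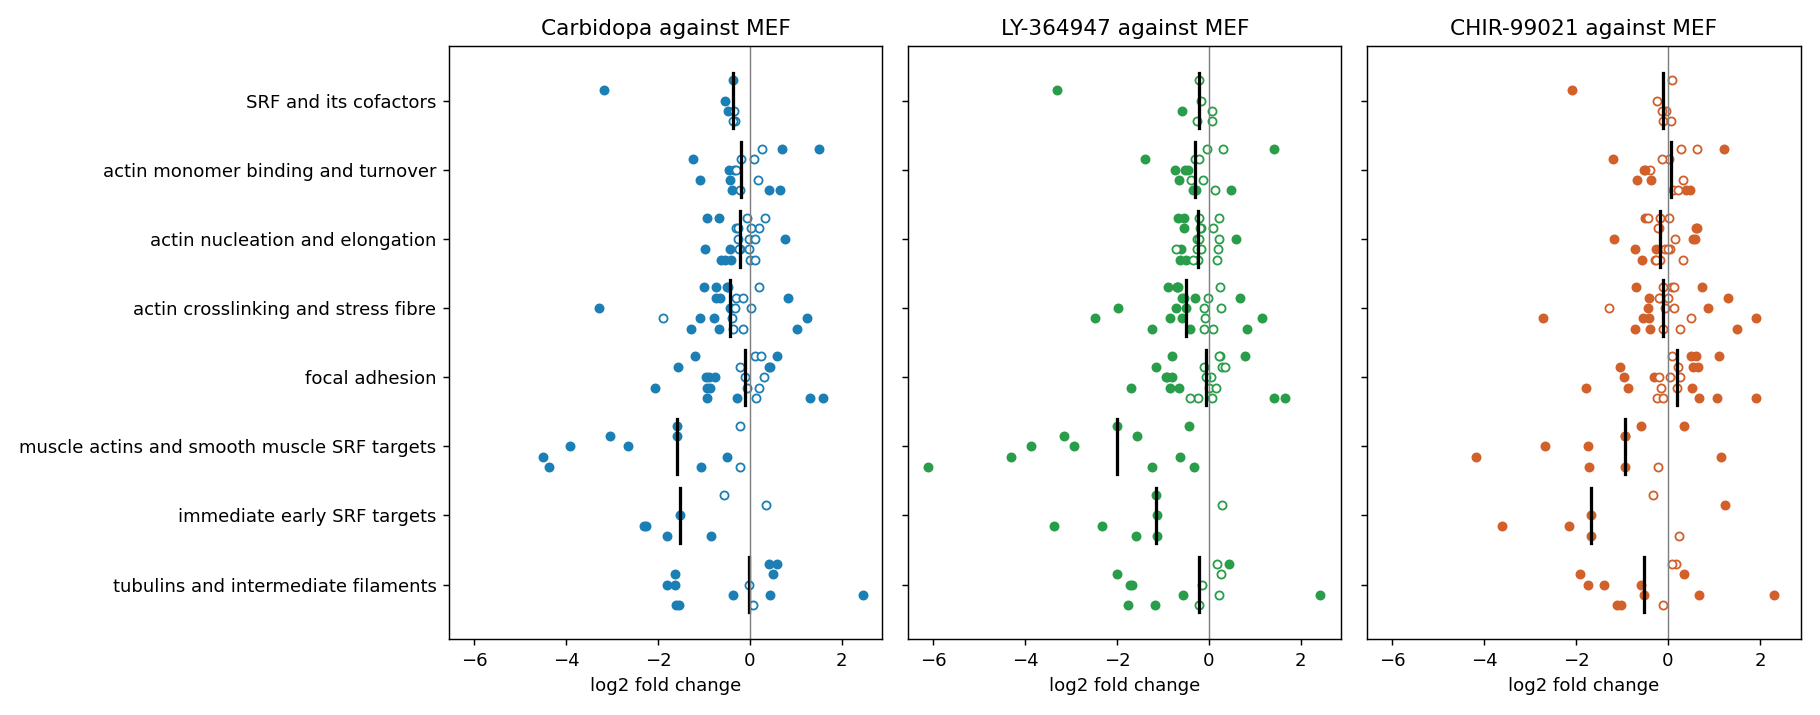
Log2 fold change against MEFs (horizontal axes) of the tested genes of 8 companion lists, with 1 point per gene, filled where the adjusted p was under 0.05, and a black bar at the median of the list. The list medians farthest left are those of muscle and smooth muscle targets with carbidopa and LY-364947 (-1.60 and -1.99) and of immediate early targets with CHIR-99021 (-1.67), and most other lists hold genes on both sides of 0.

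The 25 genes of actin crosslinking and stress fibres split in both directions, with 13, 15 and 8 lower and 3, 3 and 5 higher (medians -0.42, -0.49 and -0.11). With library totals alone, 9, 10 and 4 were lower and 4, 5 and 8 higher, and the last median was 0.11. Tpm1, a tropomyosin that coats filaments, was higher with all compounds, from 726 and 695 CPM in MEFs to between 1469 and 2780 (log2 fold changes 1.25, 1.16 and 1.91). Dbn1, or drebrin (1.02, 0.84 and 1.51), and Fscn1, or fascin (0.82, 0.68 and 1.31), which bundle filaments in cell projections, were higher too. Sptbn1, a spectrin of the membrane skeleton, fell with carbidopa (-0.41) and CHIR-99021 (-0.43) and had -0.11 with LY-364947. Of the 25 genes, 14 were higher with CHIR-99021 than with LY-364947 and 14 than with carbidopa. None was lower by edgeR or DESeq2, and 1 and 0 were lower at an unadjusted p under 0.05. In these comparisons, 6.45% and 6.62% of all genes tested were higher by edgeR and 7.69% and 8.08% lower.

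Of 23 further focal adhesion genes tested of 24, 10, 8 and 5 were lower and 5, 3 and 9 higher (medians -0.10, -0.05 and 0.20). Under library totals alone 9, 8 and 4 were lower and 8, 9 and 11 higher (medians 0.15, 0.17 and 0.42), and without carbidopa replicate 2 the 5 higher with carbidopa became 8. Pxn, the adaptor paxillin, was higher with all compounds (1.59, 1.66 and 1.92), with 54.6 and 51.7 CPM in MEFs and 152 to 213 in treated cells. Bcar1, the adaptor p130Cas, fell with all (-2.06, -1.69 and -1.79). Tln2, the paralog of Tln1, also fell with all (-1.56, -1.15 and -1.04), opposite to Tln1. Lpp, a relative of zyxin, fell with carbidopa (-0.93), where its libraries had 324 and 699 CPM, and had -0.42 and -0.10 with the others.

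Among 16 genes of monomer binding and turnover, 5, 7 and 5 were lower and 4, 2 and 3 higher (medians -0.19, -0.30 and 0.07). By library totals alone, 2, 3 and 4 were lower and 5, 2 and 8 higher, and the first median was 0.06. Without carbidopa replicate 1, 9 were lower and 2 higher with carbidopa, and without replicate 2, 5 were lower and 7 higher. The severing proteins Gsn, or gelsolin (-1.24, -1.38 and -1.19), and Dstn, or destrin (-0.44, -0.51 and -0.50), fell with all compounds, as did Coro1c (-1.09, -0.65 and -0.68), whereas Cfl2, the muscle cofilin, was higher with all, from 155 and 166 CPM in MEFs to between 328 and 458. Among 22 genes of nucleation and elongation, 7, 6 and 6 were lower and 1, 1 and 4 higher (medians -0.23, -0.23 and -0.18). Under library totals alone 3, 4 and 2 were lower and 4, 3 and 6 higher (medians 0.02, -0.0053 and 0.04), and without carbidopa replicate 2 the 1 higher with carbidopa became 2. Of the Arp2/3 complex, Actr2 fell with all compounds (-0.63, -0.63 and -0.57), Arpc1a was higher with all (0.77, 0.59 and 0.54), and Arpc2 passed with none (-0.06, -0.22 and 0.01). The formin Daam1 fell with all (-0.93, -0.68 and -0.50).

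Markers of other cells moved with the same contrasts. Their counts stand beside the 20.1%, 17.2% and 19.7% of all genes tested that were lower with CHIR-99021, LY-364947 and carbidopa. The shares that were higher were 18.7%, 13.7% and 18%. The 14 macrophage markers summed to 1219 and 1264 CPM in MEFs, 94.4 to 103 under CHIR-99021, 288.8 to 289.6 under LY-364947 and 376 to 391 under carbidopa, and of the 12 tested 12 were lower with CHIR-99021 and 11 with each of the others. The defining macrophage genes Csf1r and Adgre1 were above 0 in every library. The 12 fibroblast markers summed to 35497 to 35767 CPM in MEFs and 8570 to 12238 in treated cells, with 9 of 12 lower and 1 higher with each compound. Skeletal and cardiac muscle markers summed to 44.5 to 46.8 CPM in MEFs and 8.59 to 13.9 in treated cells, with Myod1 and Myog at 0 or 1 count. The 10 epithelial markers summed to 3.29 to 4.24 CPM in MEFs and 9.82 to 21.6 in treated cells. Krt19 had the most counts of these, 43 and 36 in MEFs and 105 to 408 in treated libraries. Of the 3 epithelial markers tested, 3 were higher with CHIR-99021, 1 with each of the others, and 0 were lower. Krt18 had 5 and 10 counts in MEFs, 45 and 48 under CHIR-99021 and 11 to 27 under the others. Cldn4 had 2 and 2 in MEFs, 36 and 29 under CHIR-99021 and 4 to 12 under the others. Epcam and Cdh1 were at 0 in MEFs and had 2 to 6 and 0 to 4 counts in treated libraries. Krt8 had 6 and 0 counts in MEFs and 0 to 3 in treated libraries. The remaining epithelial markers had at most 2 counts. The 6 endothelial markers summed to 11.3 to 19.6 CPM. Their part in the differences of the actin genes was not tested. In bulk samples fewer cells of a type and less RNA per cell cannot be told apart.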

How the data were processed

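RNA-seq was performed on 8 libraries in 4 groups of 2. The authors mapped the reads with STAR 2.4.2a to mm10 and counted them on genes with featureCounts, and deposited whole-number counts per gene without normalization. The labels name a SMARTER kit and the methods an NEBNext kit. The annotation, the strand setting and the version of featureCounts are not given in the sources used here. The intervals cover counting error and the spread between libraries. Reads carry no molecular identifiers, so any part of that spread that comes from amplification cannot be told apart. Groups and replicate numbers are those of the sample titles.

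The 10 genes, the companion lists and the named genes were chosen with earlier results of these data known. Of each list, the text names the gene of highest mean CPM and up to 3 genes with the largest absolute log2 fold change against MEFs among genes that passed the threshold of 0.05, did not overlap between treated and MEF libraries, and averaged 20 CPM or more in the higher group. The SRF list is named in full. One further companion list is not reported here. Csf1r, Adgre1, Alb, Hnf4a, Serpina1a, Tat, Epcam, Cdh1, Krt8, Krt18, Krt19, Cldn4, Myod1, Myog, Gm12715 and Ap3m1 were named after their values were seen. The 5 genes most alike were ranked by the Pearson correlation of log2 CPM (prior count 2).

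Counts were analysed in R 4.3.3 with edgeR 4.0.16 (filterByExpr, TMM, quasi-likelihood test, a single fit of all 8 libraries on group), which left 15154 of 50578 genes (30.0%). The Benjamini-Hochberg adjustment ran over all genes in each of 6 comparisons, and SEs were taken as the absolute log2 fold change divided by the square root of F. Alternatives were RLE, upper-quartile and no scaling factors, other filters, the 2 groups alone, a replicate block, DESeq2 1.42.0 and leaving out each library. With a library left out, the lone sample of its group is assumed to vary like the others. No pair of replicates agreed within sampling noise. Correlations of deviations between same-numbered samples ranged from -0.161 to 0.128, which does not decide whether samples were paired. The main fit used no pairing. Positions and exon lengths are from GENCODE M21, which held 99.6% of the gene IDs, and promoters from RefSeq (GRCm38.p6). The scripts were tested on simulated data.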

Additional observations from a re-analysis of the deposited data

How the results depend on the processing

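Across 17 alternatives and 60 differences of single genes, 918 of 1020 values kept their direction and side of the threshold, 50 lost and 41 gained a call, and 11 changed sign. Actn1 and Zyx against MEFs with every compound, Actn4, Myh9 and Tln1 with CHIR-99021, and Actb with carbidopa and LY-364947, kept their calls in all alternatives. Except for the 9 genes between LY-364947 and carbidopa, the counts in this section include Actn4. Its differences that use the carbidopa or LY-364947 libraries are descriptions, so these counts are not free of the choice of genes. Under library totals alone, the genes lower with carbidopa were 4 and those higher with CHIR-99021 were 6, and the fold changes against MEFs turned to 0.0977 for Srf with carbidopa, 0.0119 for Vcl with LY-364947 and 0.0967 for Vcl with CHIR-99021. Tln1 made 1 gene higher with carbidopa under library totals alone, upper-quartile factors and no filter. Between LY-364947 and carbidopa, Actb turned to -0.00975 under library totals alone and to -0.00122 without a filter. The replicate block lost the call of Srf with LY-364947 against MEFs (-0.38, adjusted p = 0.0531), which made 33 calls in place of 34, and changed no other call. Deviations of samples with the same number correlated only weakly (-0.161 to 0.128). With crossed numbers for LY-364947, a pairing chosen after seeing the data, 38 were called.

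Leaving out 1 library, the genes lower than in MEFs numbered 3 in each fit for CHIR-99021, 4 to 9 for LY-364947 and 4 to 7 for carbidopa, and those higher 2 to 4, 0 to 1 and 0 to 1. The lowest counts with carbidopa came without MEF replicate 1 or 2, and 0 higher with LY-364947 came without MEF replicate 1 or 2 or LY-364947 replicate 2. The number higher with CHIR-99021 ranged from 2 to 7 against LY-364947 and from 4 to 9 against carbidopa, with 0 lower in all. Between LY-364947 and carbidopa, 0 to 2 of the 9 genes were higher and 0 to 1 lower. In this comparison fold changes ranged from -0.0248 to 0.0549 for Actb, -0.0565 to 0.544 for Flna, -0.0516 to 0.209 for Myh9 (-0.00337 without carbidopa replicate 1) and -0.0589 to 0.000861 for Zyx, and for Actb with CHIR-99021 against MEFs from -0.0252 to 0.149. Over all genes, calls between LY-364947 and carbidopa were 2, but 329 without a filter, 15 by DESeq2, 0 with these groups alone and 3832 without carbidopa replicate 2. The cause of these changes was not tested, except that a fit without a library has fewer samples. The 2 libraries per group limit every comparison, since counts per gene were at least 381 for these genes.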

Other observations

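Genes that carry a CArG box in the same promoter window were examined beside the 10 genes, which were left out. Of 10704 tested genes with a promoter in the table, 167 held the motif. Of these, 42 were lower with carbidopa (25.1%, beside 20% of all genes with a promoter), 38 with LY-364947 (22.8% beside 17.8%) and 42 with CHIR-99021 (25.1% beside 20.7%), and 30 (18% beside 19%), 20 (12% beside 14.3%) and 36 (21.6% beside 20.2%) were higher. Between compounds, 19 were higher with CHIR-99021 than with LY-364947 (11.4% beside 6.92%) and 21 than with carbidopa (12.6% beside 6.92%), and 12 (7.19% beside 7.9%) and 15 (8.98% beside 8.4%) were lower. These are counts without a test. Among the companion lists given here the motif was found for Fhl2, Arpc4, Lima1, Fermt2, Trip6, Acta1, Actc1, Cnn2 and Egr2.

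The other filament systems of the cell gave mixed counts. Of 13 tubulin and intermediate filament genes, 6, 6 and 7 were lower and 5, 2 and 3 higher with carbidopa, LY-364947 and CHIR-99021 (medians -0.02, -0.21 and -0.53). Under library totals alone 5, 6 and 7 were lower and 6, 5 and 4 higher (medians 0.23, 0.02 and -0.32). Vim, the vimentin filament of mesenchymal cells and also 1 of the fibroblast markers, had 2591 and 2470 CPM in MEFs and 570 to 888 in treated cells (log2 fold changes -1.80, -1.67 and -1.74). Lmna, a lamin of the nuclear envelope, fell as well (-1.60, -1.77 and -1.02). Nes, the intermediate filament nestin, was higher with all compounds, with 23.1 and 18.3 CPM in MEFs and 93.8 to 122 in treated cells (2.46, 2.41 and 2.32).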
